A study of Mus musculus with 6 samples.

Results

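The 10 genes described here are established transcriptional targets of p53: Bbc3, Aen, Bax, Eda2r, Cdkn1a, Ccng1, Mdm2, Phlda3, Trp53inp1 and Zmat3. They were taken by gene symbol, with no cut on a measured value, from the 16375 genes of a liver RNA-seq table, and all 10 were found. The choice was made with earlier results of these data known. The 6 libraries were made from the livers of mice given inosine by intraperitoneal injection (3 libraries) and of control mice (3 libraries). The labels used here do not state what the controls received, nor the strain, sex, age, dose or time of collection. By its title, the series concerns RNA editing in the liver during cachexia. Whether each library came from its own mouse is not stated, and p-values therefore reflect library-to-library spread alone, which may be technical.

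The protein p53 (gene Trp53) is a transcription factor that is held at a low level by the ubiquitin ligase Mdm2 and is stabilised when DNA is damaged or ribosome assembly is disturbed. It then binds response elements near its target genes, which stop the cell cycle, start apoptosis through the mitochondria, repair DNA, or feed back on p53 itself. Several of these genes, Cdkn1a among them, are also induced in liver by signals other than p53, such as glucocorticoids and fasting.

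Promoter sequences are shown for the 3 members whose windows held a p53 response element by a computed search. RefSeq (GRCm38.p6) gave windows of 300 bases, 250 before and 50 after a transcript start, for 8 of the 10 members, 12 windows in all. Trp53inp1 and Zmat3 had no window and were not searched. The search took the p53 response element as 2 half-sites in a row, 20 bases, with both cores kept and up to 3 of the 12 letters outside the cores off the consensus. The element reads as its own reverse complement, so 1 pass covered both strands. Windows of 3 members held it (4 windows, of which 2 overlap), against 188 of 32851 windows in the whole table, or 0.572%. This search was set after the values of the genes had been seen. The member windows had a median GC content of 64.0%, against 52.7% in all windows, so the share over all windows is not a matched background. Capitals mark the element, and each sequence runs 5′ to 3′ on the strand of its gene.
Bbc3, chr7:16309333-16309632, plus strand: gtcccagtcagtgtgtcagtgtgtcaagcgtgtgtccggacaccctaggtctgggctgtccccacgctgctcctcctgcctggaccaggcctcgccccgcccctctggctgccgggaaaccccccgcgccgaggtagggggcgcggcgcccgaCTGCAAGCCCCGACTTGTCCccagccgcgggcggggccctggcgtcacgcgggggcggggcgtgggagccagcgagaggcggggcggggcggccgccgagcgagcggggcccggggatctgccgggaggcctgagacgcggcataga
Aen, chr7:78895677-78895976, plus strand: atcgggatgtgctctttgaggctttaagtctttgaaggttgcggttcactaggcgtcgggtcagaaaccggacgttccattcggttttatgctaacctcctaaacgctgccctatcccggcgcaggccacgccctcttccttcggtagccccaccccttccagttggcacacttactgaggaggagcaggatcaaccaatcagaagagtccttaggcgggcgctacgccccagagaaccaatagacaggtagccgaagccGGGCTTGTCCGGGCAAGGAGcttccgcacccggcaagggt
Cdkn1a, chr17:29090729-29091028, plus strand: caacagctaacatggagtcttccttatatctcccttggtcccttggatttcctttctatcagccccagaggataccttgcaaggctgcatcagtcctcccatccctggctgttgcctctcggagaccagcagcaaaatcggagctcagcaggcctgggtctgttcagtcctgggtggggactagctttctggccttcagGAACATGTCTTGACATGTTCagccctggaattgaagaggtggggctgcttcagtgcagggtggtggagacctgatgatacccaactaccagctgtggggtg
The element lay at positions -97 to -78 from the start in Bbc3, 10 to 29 in Aen and -51 to -32 in Cdkn1a, with 3, 3 and 1 letters off the consensus. The Cdkn1a window belongs to the upstream start, and the window of its downstream start held no match. An exact match to a single half-site of 10 bases was present in 6 of the 12 windows (of Bax, Aen, Cdkn1a, Ccng1 and Mdm2, with 2 overlapping windows of Aen), against 8.36% of all windows. These matches describe the letters of the windows and not binding.

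The libraries held 16383896 to 17505035 counts. Of the 16375 genes, 12326 passed the filter on low counts and were tested, among them 9 of the 10 members. Only Eda2r did not pass. Albumin (Alb), the defining transcript of hepatocytes, measured 65696 to 89637 CPM (counts scaled to library size by the TMM method) over the 6 libraries. Control 1 stood apart from the other controls on several clock genes and on part of a list of glucocorticoid-induced genes. Among the controls it was also lowest for 7 of 8 Kupffer and 6 of 7 endothelial genes, and highest for 1 and 0. For 8 of 12 BCL-2 family genes it was lowest and for 2 highest. For 4 of 5 hepatocyte genes it was highest and for 0 lowest. Shares over all genes were not counted for these places, and the marker values below include control 1. The members it touches are given with and without it.

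No member passed the threshold over all genes. In edgeR's quasi-likelihood test 0 of the 9 tested members had an adjusted p under 0.05, where 0.00811% of all genes tested did (1 gene). DESeq2 called 1 member, Bbc3, against 1.81% of all genes, and limma-voom called 0. At an unadjusted p under 0.05 edgeR had 2 of 9 members, Bbc3 lower and Aen higher, against 14.5% of all genes tested. The same 2 members were those whose groups did not overlap, where 20.9% of all genes did so (11.1% higher and 9.8% lower). The median log2 fold change of inosine over control was 0.04 over the 9 members and -0.01 over all genes tested. Both counts stood near their background at this number of genes and are no result about the targets as a set. The members differed in kind. The group means of Bbc3 and Aen differed in opposite directions, and Cdkn1a and Trp53inp1 varied more among the controls than between the groups. The groups of Zmat3 overlapped through control 1 alone, and the others lay close together in all libraries or were scarce.

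**Figure D1:**
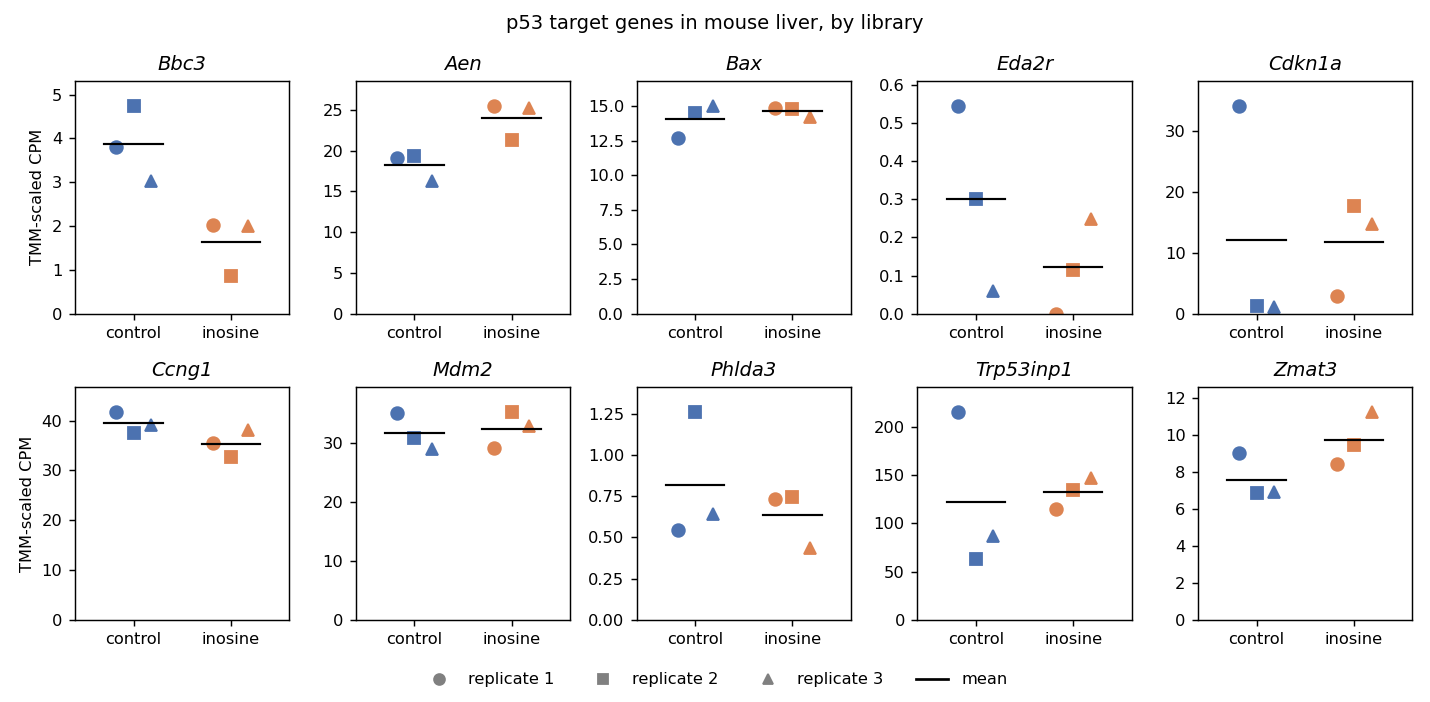
TMM-scaled CPM (y axis from 0) of the 10 p53 target genes in the 3 control and 3 inosine libraries; each point is a library, its shape the replicate number, and the line the group mean. Bbc3 was lower and Aen higher in all 3 inosine libraries than in any control, while Cdkn1a and Trp53inp1 were highest in control 1.

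Among the genes of apoptosis, Bbc3 showed the widest gap between the groups. Bbc3 (gene ID 170770; chromosome 7, 16042307 to 16052259, plus strand, GRCm39) encodes PUMA, a BH3-only protein that binds the survival proteins of the BCL-2 family and so frees the pore formers BAX and BAK. It measured 3.81, 4.74 and 3.03 CPM in controls 1 to 3 and 2.03, 0.859 and 1.996 CPM in inosine 1 to 3. The lowest control lay above the highest inosine library, and inosine 2 was the lowest of all. The counts behind these values were few, 63, 79 and 52 in control and 36, 15 and 32 in inosine. The means were 3.86 ± 0.86 and 1.63 ± 0.67 CPM (SD, n = 3), a ratio of 0.421 and a log2 fold change of -1.25 (SE 0.33, 95% interval -2.01 to -0.48, adjusted p in edgeR = 0.185). DESeq2 gave -1.25 with an adjusted p of 0.038, and the authors' deposited table gives -1.24 with a q-value of 0.066. Bbc3 passed in DESeq2 alone: over 14 alternatives, each lower in inosine, its adjusted p ranged from 0.038 to 0.455. In whole liver, fewer cells of a type and less RNA per cell cannot be told apart.

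Aen differed in the other direction and by less. Aen (gene ID 68048; chromosome 7, 78545675 to 78560957, plus strand) encodes a nuclease of the nucleus that takes part in p53-dependent apoptosis. It measured 19.1, 19.3 and 16.3 CPM in controls 1 to 3 and 25.5, 21.4 and 25.3 CPM in inosine 1 to 3. All inosine libraries lay above all controls, with inosine 2 nearest to them. The log2 fold change was 0.40 (SE 0.11, 95% interval 0.15 to 0.65, adjusted p in edgeR = 0.196), and it was higher in all 14 alternatives (adjusted p from 0.141 to 0.412). The authors' deposited table gives 0.40 with a q-value of 0.255.

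The other members tied to apoptosis showed no such separation. Bax (gene ID 12028; chromosome 7, 45111119 to 45116344, minus strand), the pore-forming effector on which PUMA acts, measured 12.6, 14.5 and 14.99 CPM in control and 14.9, 14.8 and 14.2 CPM in inosine. The groups overlapped fully, with a log2 fold change of 0.06 and a 95% interval of -0.18 to 0.30 (adjusted p in edgeR = 0.825). Eda2r, a receptor of the TNF receptor family for an isoform of ectodysplasin, was near the limit of detection, with 9, 5 and 1 counts in control and 0, 2 and 4 in inosine. In the library with no Eda2r count the limit is 3 counts, or 0.169 CPM, and without the filter on low counts the log2 fold change was -1.29, with a 95% interval from -3.48 to 0.91 (adjusted p in edgeR = 0.627). This limit of 3 counts covers counting error only.

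Cdkn1a was the most variable member. It encodes p21, the inhibitor of cyclin-dependent kinases through which p53 stops the cell cycle (gene ID 12575; chromosome 17, 29309953 to 29319696, plus strand). It measured 34.1, 1.201 and 1.11 CPM in controls 1 to 3, and 2.87, 17.7 and 14.7 CPM in inosine 1 to 3. Control 1 was the highest of the 6 libraries and the other controls the lowest, so the controls alone spanned 30.8-fold and enclosed every inosine value. On the log2 CPM scale the SD among controls was 2.74, rank 8 from the top among the 12326 genes tested, and among inosine libraries 1.42, rank 46. With all 6 libraries the log2 fold change was -0.05 (SE 1.16, adjusted p in edgeR = 0.990), with a 95% interval of -2.73 to 2.63 that leaves neither direction out.

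Leaving out control 1 turned the sign of Cdkn1a. The log2 fold change was then 3.34 (SE 0.79, adjusted p in edgeR = 0.1004, with 0.1004 to 0.998 over 14 alternatives), and all 3 inosine libraries lay above both remaining controls. Without control 2 or without control 3 it was -0.59, and without inosine 1 it was 0.42. Averaging on the log scale, as limma-voom does, gave 1.32 with all 6 libraries (adjusted p = 0.649). The direction of Cdkn1a was thus positive in 7 of 14 alternatives and negative in the other 7.

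Trp53inp1 shared much of this pattern. Its product is a nuclear and autophagosomal protein that promotes p53 activity and is induced by many stresses (gene ID 60599; chromosome 4, 11156441 to 11174379, plus strand). It measured 215, 62.7 and 86.8 CPM in controls 1 to 3 and 114, 134 and 147 CPM in inosine 1 to 3. As with Cdkn1a, control 1 was highest, the other controls lowest and the inosine libraries between. The SD of log2 CPM among controls, 0.92, had rank 168 of the genes tested, and that among inosine libraries, 0.18, had rank 4589. The log2 fold change was 0.12 (SE 0.40, adjusted p in edgeR = 0.921) with all libraries and 0.82 (SE 0.16, adjusted p in edgeR = 0.072) without control 1. Over 14 alternatives the adjusted p ranged from 0.072 to 0.985.

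Zmat3 showed a weaker form of it. It encodes a zinc finger protein that binds RNA and acts on splicing and mRNA stability downstream of p53 (gene ID 22401; chromosome 3, 32388941 to 32419814, minus strand). It measured 9.02, 6.84 and 6.88 CPM in control and 8.44, 9.45 and 11.2 CPM in inosine, so that control 1 alone lay within the inosine range. The log2 fold change was 0.35 (SE 0.16, adjusted p in edgeR = 0.368), and 0.50 (SE 0.16, adjusted p in edgeR = 0.167) without control 1, with 0.167 to 0.651 over 14 alternatives. Without that library 5 of the 9 tested members had an unadjusted edgeR p under 0.05, Cdkn1a, Trp53inp1, Zmat3 and Aen higher and Bbc3 lower, against 19.4% of 12480 genes (9.95% higher and 9.42% lower). The same 5 had groups that did not overlap, as had 40% of all genes (20.2% higher and 19.9% lower), and 0 passed over all genes (0.449% did).

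**Figure D2:**
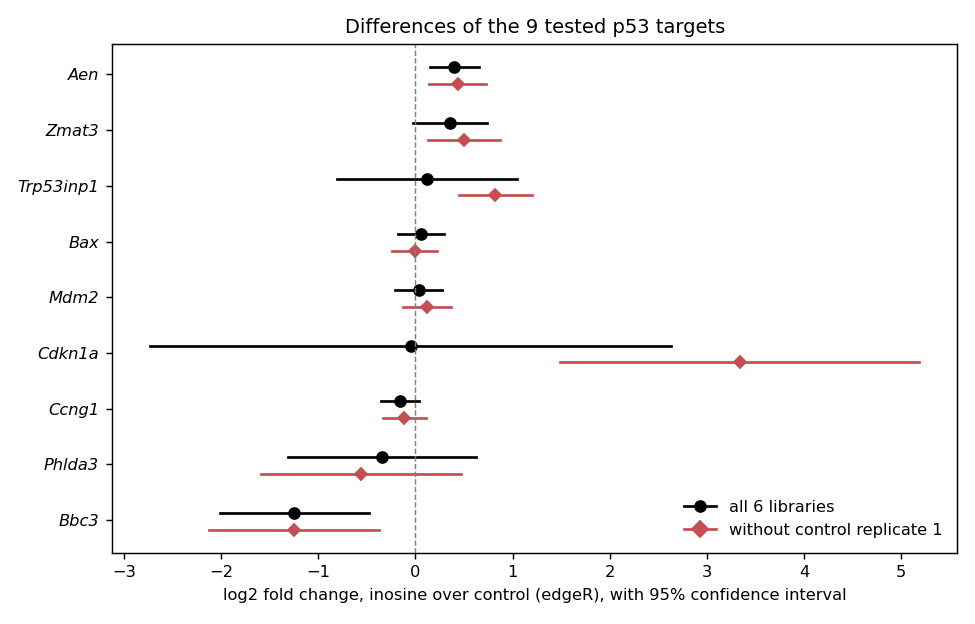
Log2 fold change of inosine over control (x axis) of the 9 tested p53 target genes in edgeR with its 95% confidence interval, from all 6 libraries (circles) and without control replicate 1 (diamonds). Cdkn1a moved from -0.05 to 3.34 and Trp53inp1 from 0.12 to 0.82, while Bbc3 stayed at -1.25.

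The genes closest to Cdkn1a over the libraries were named after its values had been seen. Among 11690 other genes with a mean of at least 1 CPM, closeness was the root mean square difference of log2 CPM, each gene taken relative to its control mean. The 5 closest were Fam107a (0.58), Fkbp5 (0.86), Arrdc2 (0.89), Gadd45g (0.94) and Ddit4 (0.95). Fkbp5, a co-chaperone of the glucocorticoid receptor that is itself induced by glucocorticoids, measured 197, 25.5 and 31.4 CPM in controls 1 to 3 and 97.8, 164 and 197 CPM in inosine 1 to 3. Ddit4, an inhibitor of mTORC1 signalling, is also on the growth arrest list of other p53 targets given below. It measured 40.9, 4.26 and 4.14 CPM in control and 9.06, 11.3 and 27.3 CPM in inosine. Control 1 was high and the other controls lowest in both. Without control 1 the log2 fold changes were 2.43 for Fkbp5 (SE 0.29, adjusted p in edgeR = 0.035) and 1.91 for Ddit4 (SE 0.49, adjusted p in edgeR = 0.115).

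Of 8 glucocorticoid-induced genes, 4 were highest and 0 lowest in control 1 among the controls. The list summed to 4812, 2068 and 2939 CPM in controls 1 to 3 and 3384, 4288 and 5459 CPM in inosine 1 to 3, mostly through Tat (3841, 1492 and 2476 CPM in control). All 8 were tested and had a log2 fold change above 0, as had 48.2% of all genes tested, with 1 of them, Per1, at an unadjusted edgeR p under 0.05 (0.40, SE 0.16). The next by p, Zbtb16, measured 1.08 (SE 0.57). Of 12 clock genes tested, 3 were higher and 0 lower at that level (7.21% and 7.26% of all genes were), Per2 (0.61, SE 0.07), Hlf (0.26, SE 0.10) and Per1. Per2 was the clock gene called by DESeq2 and did not set control 1 apart, with 78.9, 73.1 and 73.7 CPM in control and 111, 115 and 118 CPM in inosine. Of the 12, 5 were highest and 5 lowest in control 1 among the controls. The share of all genes with such a place was not counted for either list. These counts alone therefore do not set control 1 apart. The clock genes that follow were named after their values were seen. Dbp, a clock output gene, measured 19.4, 158 and 141 CPM in controls and 65.8, 55.0 and 40.8 CPM in inosine, and Nr1d1, a repressor in the clock, 5.63, 64.4 and 33.3 CPM and 14.0, 9.51 and 11.9 CPM. With all libraries their log2 fold changes were -0.97 (SE 0.62) and -1.55 (SE 0.68), and without control 1 they were -1.47 and -2.05 (adjusted p in edgeR = 0.035 and 0.038). Arntl, an activator in the clock, turned from -1.04 to 0.83 without control 1. The part of these differences in the values of Cdkn1a, Trp53inp1 and Zmat3 was not tested.

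**Figure D3:**
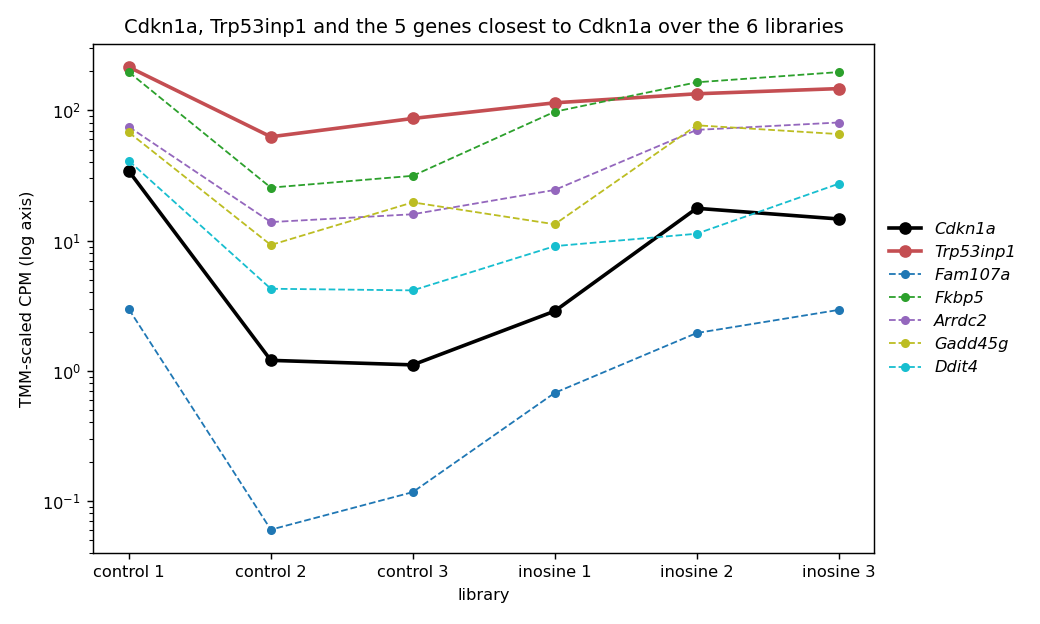
TMM-scaled CPM (log y axis) of Cdkn1a, Trp53inp1 and the 5 genes closest to Cdkn1a in each of the 6 libraries (x axis); lines only join the points of a gene. Control 1 lies above controls 2 and 3 for every gene drawn, and Cdkn1a stands at 34.1 CPM in control 1 and at 1.201 and 1.11 CPM in the other controls.

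Of the remaining members, Mdm2 and Ccng1 lay close together in all libraries and Phlda3 was scarce. Mdm2 (gene ID 17246; chromosome 10, 117524780 to 117546663, minus strand), the ligase that marks p53 for degradation and is itself a p53 target, measured 35.2, 30.9 and 28.9 CPM in control and 29.2, 35.3 and 32.9 CPM in inosine. The groups overlapped, and the 95% interval of its log2 fold change, -0.21 to 0.28 around 0.04, was narrow (adjusted p in edgeR = 0.907). Ccng1 (gene ID 12450; chromosome 11, 40630413 to 40646155, minus strand), cyclin G1, which recruits a protein phosphatase to Mdm2, measured 41.7, 37.6 and 39.1 CPM in control and 35.5, 32.6 and 38.0 CPM in inosine. Inosine 3 lay within the control range and the other inosine libraries below it, with a log2 fold change of -0.16 and an SE of 0.08 (adjusted p in edgeR = 0.431). Phlda3 (gene ID 27280; chromosome 1, 135693823 to 135696872, plus strand), which competes with AKT for membrane lipids, was scarce at 9, 21 and 11 counts in control and 13, 13 and 7 in inosine. Its log2 fold change of -0.34 had a 95% interval from -1.31 to 0.63 (adjusted p in edgeR = 0.735), so the depth sets little limit on it.

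Levels were compared between genes in the authors' TPM, a unit that allows for gene length. Bax ranged from 29.1 to 34.4 TPM in control and from 30.6 to 37.9 TPM in inosine. Trp53inp1, from 14.9 to 53.9 TPM in control, overlapped with it. Ccng1 (14.3 to 16.8 TPM) and Mdm2 (12.96 to 16.1 TPM) followed in control and overlapped with each other. Below them, with gaps between the ranges, stood Aen (4.48 to 5.35 TPM), Bbc3 (2.54 to 4.16 TPM) and Zmat3 (1.11 to 1.54 TPM). In the inosine libraries Bbc3, at 0.95 to 1.93 TPM, overlapped with Zmat3, at 1.49 to 1.78 TPM. Cdkn1a moved through this order by library, from 27.3 TPM in control 1 to 0.87 TPM in control 3. Phlda3 (0.45 to 1.32 TPM over all libraries) overlapped with Zmat3 in control only, through control 2. In the inosine libraries Phlda3 lay below Zmat3, at 0.45 to 0.91 TPM. Eda2r (at most 0.18 TPM) was lowest.

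**Figure D4:**
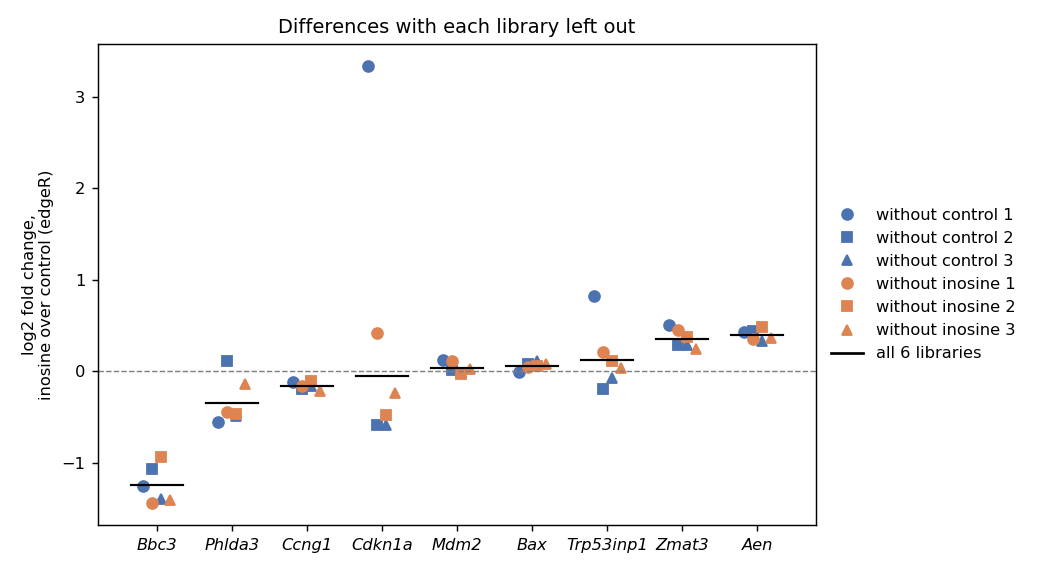
Log2 fold change of inosine over control (y axis, edgeR) of each tested p53 target gene with each library left out in turn (points) and with all 6 libraries (lines). The points of Bbc3 lie between -1.44 and -0.94 and those of Aen between 0.33 and 0.48, whereas those of Cdkn1a run from -0.59 to 3.34.

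The gene of p53 itself did not pass over all genes. Trp53 measured 15.1, 16.6 and 14.7 CPM in control and 13.3, 12.7 and 13.2 CPM in inosine, without overlap, with a log2 fold change of -0.24 and an SE of 0.10 (adjusted p in edgeR = 0.311). Of 25 tested genes of p53 and its regulators, 2 were higher and 1 (Trp53) lower at an unadjusted edgeR p under 0.05, where 7.21% and 7.26% of all genes were, and the list's median was 0.03. Hipk2, a kinase that phosphorylates p53, was among the higher genes (log2 fold change 0.31, SE 0.08, adjusted p in edgeR = 0.178). Mdm4, the partner of Mdm2 that blocks the activation domain of p53, measured -0.04 (SE 0.09). None of the 25 passed over all genes in edgeR or DESeq2.

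Other established p53 targets were counted from lists of growth arrest, apoptosis, and repair and metabolism. Of 38 tested, 12 were higher and 26 lower, where 48.2% and 51.8% of all genes tested were, with a median log2 fold change of -0.06, and 0 passed over all genes in edgeR or DESeq2. None was higher and 3 were lower at an unadjusted edgeR p under 0.05, against 7.21% and 7.26% of all genes. The 3 were Plk2, a polo-like kinase (-0.67, SE 0.24), Sesn1, a sestrin that restrains mTORC1 (-0.35, SE 0.13), and Dglucy, a mitochondrial D-glutamate cyclase (-0.29, SE 0.09). Sesn1 measured 13.7, 14.4 and 13.3 CPM in control and 11.4, 9.05 and 12.2 CPM in inosine, with no overlap. Tigar, which lowers glycolytic flux, measured 0.37 (SE 0.18). Gadd45a, a growth arrest gene, measured -0.79 (SE 0.57) and Gdf15, a stress hormone, -0.23 (SE 0.35). Without control 1, Ddit4 (1.91), Lpin1 (1.85), Gtse1 (0.91), Tigar (0.48) and Aifm2 (0.29) were higher at an unadjusted edgeR p under 0.05. Plk2 (-0.85), Sesn1 (-0.35), Dglucy (-0.24) and Gadd45a (-1.21) were lower at that level, against 9.95% higher and 9.42% lower among all genes. None of these targets passed over all genes.

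The apoptosis list of 12 targets had no gene at an unadjusted edgeR p under 0.05, against 14.5% of all genes, and a median of -0.05. Its members of smallest p were Aifm2, a mitochondrial and lipid droplet oxidoreductase (0.16), and Zfp385a, a zinc finger protein that steers p53 towards arrest (0.21). Without control 1 they measured 0.29 (SE 0.09) and 0.30 (SE 0.18). Aifm2 alone of the list then had an unadjusted edgeR p under 0.05, against 19.4% of all genes. Pmaip1, which encodes NOXA, the other BH3-only protein best known as a p53 target, was scarce at 0.654 and 0.816 CPM in control and inosine and measured 0.32 (SE 0.34). Whether it differed from Bbc3 in its response was not tested.

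Across the BCL-2 family 0 of 12 tested genes had an unadjusted edgeR p under 0.05, against 14.5% of all genes. DESeq2 had 1 at that level, against 11% of all genes, and called 0, against 1.81%. Bmf, a BH3-only protein, measured 5.39, 5.94 and 13.9 CPM in control and 3.15, 6.99 and 2.62 CPM in inosine, with a log2 fold change of -0.98 and an SE of 0.47 (adjusted p in edgeR = 0.382). Control 3 was the highest library, and inosine 2 lay above the other controls. Bik, also BH3-only, measured -0.40 (SE 0.21). The survival genes Mcl1 and Bcl2l1 measured -0.15 (SE 0.09) and 0.20 (SE 0.15), and Bcl2l11, which encodes BIM, measured -0.08 (SE 0.27). Without control 1, Bmf (-1.22), Bik (-0.54) and Bcl2l1 (0.37) had an unadjusted edgeR p under 0.05, against 19.4% of all genes. None of them passed over all genes.

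**Figure D5:**
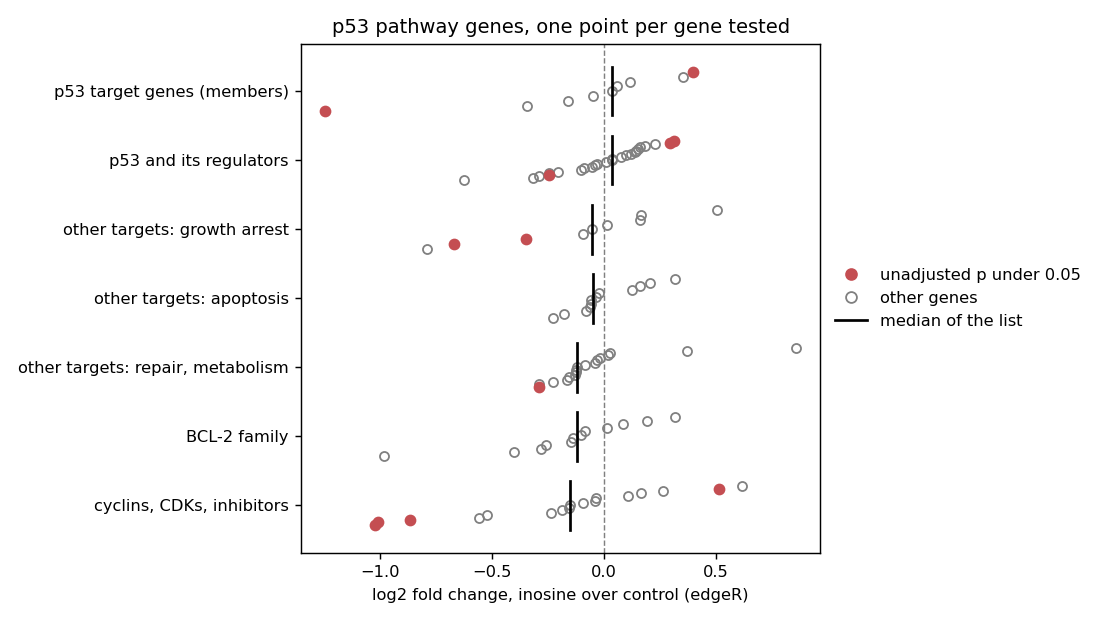
Log2 fold change of inosine over control (x axis, edgeR) of the p53 target genes and of 6 lists of related genes, with a point per gene tested, filled at an unadjusted p under 0.05, and a line at each median. The medians lie between -0.15 and 0.04, and Bbc3 is the lowest point at -1.25.

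Markers of other cells were measured beside these results, and edgeR called 0 of them over all genes. The 6 erythroid genes summed to 646 to 852 CPM in control and 306 to 506 CPM in inosine. All 5 that were tested were lower at an unadjusted edgeR p under 0.05, where 7.26% of all genes were. The log2 fold changes were -1.23 for Hba-a2 and -0.89 for Hbb-bs. DESeq2 called 4 of the 5, against 1.81% of all genes. These globins share reads with near-identical copies. The 5 cholangiocyte genes summed to 29.7 to 37.4 CPM and 38.1 to 55.9 CPM, mostly through Spp1 (0.58), while Krt7 measured -0.55. The endothelial sums came within a fraction of a CPM of each other without overlap (207.53 to 240 and 138 to 207.51 CPM), with Fcgr2b and Ptprb at -0.49 and -0.53. Sums overlapped for the Kupffer list (273 to 385 and 263 to 312 CPM), with Adgre1 and C1qa at -0.41 and -0.32. The stellate sums, 250 to 273 and 177 to 276 CPM, overlapped too, with Pdgfrb at -0.66 and Reln at -0.42. All 7 endothelial, all 7 stellate and 7 of 8 Kupffer genes were lower in inosine, where 51.8% of all genes tested were. The median log2 fold changes of these lists were -0.33, -0.42 and -0.24. Of 5 hepatocyte genes 0 had an unadjusted edgeR p under 0.05, against 14.5% of all genes, with Cyp2e1 at 0.27 and Cps1 at -0.22. T and B cell genes summed to at most 3.54 CPM and neutrophil genes to at most 7.38 CPM, with Cd3g at -0.97, Csf3r at -0.49 and S100a8 at -0.42, and Ly6g at 0 in 5 of 6 libraries. The part of these cells in the values of Bbc3, Aen or Trp53 was not tested.

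The genes whose values over the libraries came closest to those of Bbc3 were Zfp78, Nat8f7 and Racgap1, at root mean square differences of 0.19, 0.28 and 0.29 on the log2 scale over 6 libraries and among 11690 genes. Those closest to Aen were E2f5, Exosc2 and Nup35, at 0.03, 0.06 and 0.06. No gene of the lists of p53 targets was among the 6 closest genes of either. The lists held 38 other tested targets, few beside 11690 genes. Such an absence is therefore likely for any gene and carries no weight.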

How the data were processed

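Estimated counts per gene (expected counts, which need not be whole), TPM, and a log2 fold change with a p-value and q-value from DESeq2 were deposited by the authors in a table of 6 libraries, per the file headers. Per the submitters' processing notes, which carry no versions, Bowtie2, RSEM and GRCm39 were used. Strandedness is not stated. Counts were rounded (about 90% were whole; 89.8% to 90.3%) and tested in edgeR 4.0.16 (quasi-likelihood, R 4.3.3) over all genes passing filterByExpr (minimum count 10), or 75.3% of the table, with TMM scaling, the group as only term and Benjamini-Hochberg adjustment at 0.05. Alternatives used DESeq2 1.42.0, limma 3.58.1 and other settings. That step was checked on simulated data.

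Levels are TMM-scaled CPM; SD is over 3 libraries, SE is the log2 fold change over the root of F, and intervals use edgeR's degrees of freedom. Log2 CPM used a prior count of 2. Coordinates are the authors' (GRCm39); promoters are RefSeq's (GRCm38.p6). All library pairs within a group differed by more than counting noise (chi-square per gene 28.9 to 122). All 10 members are named, with the 2 genes of smallest p in each related list (3 for clock genes; some are not reported here), a fixed set of 9 pathway genes (Trp53, Mdm4, Bcl2l1, Mcl1, Bcl2l11, Pmaip1, Sesn1, Gdf15, Gadd45a) and the 3 closest genes to Bbc3 and Aen. Dbp, Nr1d1, Arntl, Tat, Lpin1, Gtse1 and the genes close to Cdkn1a were picked with their values known. The members and lists were chosen with earlier results of these data known. Of the listed genes, Trp73, Rprm and Phlda2 are not analysed here.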

Additional observations from a re-analysis of the deposited data

How the results depend on the processing

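No member of the 10 passed over all genes in any alternative but DESeq2, which called 1, Bbc3 (-1.25). Bbc3, Aen, Zmat3 and Ccng1 kept their sign in all 14 alternatives. Leaving out each library in turn gave 0 to 56 calls over all genes, 0 members called, 2 to 5 members at an unadjusted p under 0.05 and a median over members of -0.074 to 0.12; the 56 calls and 5 members came without control 1. With all libraries, the calls over all genes, 1 in edgeR, were 223 with DESeq2, 6 with limma-voom, 9 without the low-count filter, and 0 on log2(TPM + 1), on log2(TPM + 0.1) and on log2(TPM + 1) without a filter. The sign of Cdkn1a turned with limma-voom (1.32), on log2(TPM + 1) with and without a filter (0.91), on log2(TPM + 0.1) (1.33), and without control 1 or inosine 1 (-0.59 to 3.34 over the libraries left out). That of Bax turned without control 1 (-0.0079 to 0.11), of Mdm2 without control 3 or inosine 2 (-0.028 to 0.12), of Phlda3 without control 2 (-0.56 to 0.11), and of Trp53inp1 without control 2 or 3 (-0.19 to 0.82). The cause was not tested. Same-numbered libraries did not deviate together (r across genes from -0.04 to -0.02, against -0.08 to 0.12 for the other pairs). With 3 libraries per group this cannot exclude a pairing, and the labels do not state what the numbers mean. The fit with the replicate number as a block called 0 genes and gave Cdkn1a 1.36. Depth limits Eda2r, Phlda3 and Bbc3, which had few counts.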

Other observations

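The partners of p21 were counted as a list of cyclins, cyclin-dependent kinases and their inhibitors. Of 17 tested, 5 were higher and 12 lower (48.2% and 51.8% of all genes tested were), with a median log2 fold change of -0.15. By an unadjusted edgeR p under 0.05, 1 was higher and 3 were lower, against 7.21% and 7.26% of all genes. Over all genes edgeR called 0 and DESeq2 1, Ccng2, where DESeq2 called 1.81% of all genes. Ccng2, cyclin G2, the paralog of Ccng1 and a known FoxO target, measured 25.4, 12.3 and 12.5 CPM in controls 1 to 3 and 8.39, 6.13 and 10.4 CPM in inosine 1 to 3. All inosine libraries lay below all controls (log2 fold change -1.01, SE 0.32, adjusted p in edgeR = 0.237), and control 1 was again the highest control. Without it the log2 fold change was -0.58 (SE 0.21, adjusted p in edgeR = 0.201). Cdkn2d, an INK4 inhibitor, measured -0.87 (SE 0.33). The other genes at that level, named after their values were seen, were Cdk1 at -1.02 (SE 0.44) and cyclin D1 (Ccnd1) at 0.52 (SE 0.22).

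Among other paralogs of the members, Isg20l2, a nuclease related to Aen, measured 20.4, 19.2 and 20.9 CPM in control and 23.6, 23.5 and 23.9 CPM in inosine (log2 fold change 0.23, SE 0.08, adjusted p in edgeR = 0.259). Of 9 tested paralogs 1 was higher and 1 lower at an unadjusted edgeR p under 0.05, against 7.21% and 7.26% of all genes. In the signalling list around Eda2r, 4 genes were tested and 1, the adaptor Traf6, was higher at that level (0.30, SE 0.10), as were 7.21% of all genes. The ligand gene Eda measured 0.12 (SE 0.33). With so few genes, neither count is a result about its list. Edar was at 0 in 5 of 6 libraries.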
